A study of Mus musculus with 16 samples.

Results

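Lrat encodes lecithin retinol acyltransferase, and it was followed through every library of a study of fetal mouse lung in which retinoic acid signalling was blocked. It is 1 gene of 57180 in the deposited count files (ENSMUSG00000028003.7, chromosome 3) and 1 of 17276 that passed the filter on low counts. The gene was picked by its symbol because its levels in these same libraries were known to differ between the groups. Its levels and ratios are therefore given as a description, with no test. Tests are given only for other genes.

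The study sequenced poly(A) RNA from whole lungs of E14.5 fetuses, of male sex by the design text. The 16 libraries form 4 groups of 4: C57BL/6J (B6) and A/J fetuses, with BMS493 or, in controls, corn oil given to the dam. BMS493 is an inverse agonist of all the retinoic acid receptors, and it was fed to the dams at 3.75 µg per g daily over E9.5 to E14.5. The fetuses in all groups were wild type as far as the labels go, and the drug reached them through the dam. Litters are not named in the labels, so p-values measure the spread between these libraries only. In whole lung, fewer cells of a type and less RNA per cell cannot be told apart.

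Vitamin A circulates as retinol. LRAT joins retinol to a fatty acid taken from lecithin, and the retinyl ester so made is the form in which vitamin A is stored, in liver stellate cells and in lipid-holding fibroblasts of the lung among other cells. Retinol that is not esterified can be oxidised to retinaldehyde and then to retinoic acid, which binds receptors that switch genes on or off. Retinoic acid is known to raise Lrat transcription in several tissues, as it does for the gene of the clearing enzyme Cyp26b1 and for the receptor gene Rarb.

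The promoter of Lrat is shown first, beside those of its nearest neighbouring gene, Rbm46, and of Rarb, because transcripts of all of these were lower after BMS493. Each line is the 250 bases before the annotated start, 5′ to 3′ on the gene's own strand. They come from RefSeq on the build GRCm38.p6, which is not the build of the count files (GRCm39). All 3 genes lie on the minus strand, at chr3:82903975-82904224 for Lrat, chr3:82876484-82876733 for Rbm46 and chr14:16575477-16575726 for Rarb. Capitals mark TATAA and 6-base words to which retinoic acid receptors can bind, where they lie on the gene's strand, and in Rarb also the 5 bases between a pair of such words. The words searched on both strands were AGGTCA, its variant AGTTCA, its variant GGGTCA and also GGTTCA.
Lrat: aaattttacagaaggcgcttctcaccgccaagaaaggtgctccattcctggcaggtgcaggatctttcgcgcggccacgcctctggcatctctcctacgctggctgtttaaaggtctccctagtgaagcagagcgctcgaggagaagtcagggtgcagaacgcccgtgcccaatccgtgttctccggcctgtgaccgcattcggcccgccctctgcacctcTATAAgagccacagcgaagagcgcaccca
Rbm46: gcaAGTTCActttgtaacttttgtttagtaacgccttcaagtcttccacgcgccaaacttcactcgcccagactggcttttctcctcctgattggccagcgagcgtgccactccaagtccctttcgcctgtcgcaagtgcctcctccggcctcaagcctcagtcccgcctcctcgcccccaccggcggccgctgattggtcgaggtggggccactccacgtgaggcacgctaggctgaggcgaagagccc
Rarb: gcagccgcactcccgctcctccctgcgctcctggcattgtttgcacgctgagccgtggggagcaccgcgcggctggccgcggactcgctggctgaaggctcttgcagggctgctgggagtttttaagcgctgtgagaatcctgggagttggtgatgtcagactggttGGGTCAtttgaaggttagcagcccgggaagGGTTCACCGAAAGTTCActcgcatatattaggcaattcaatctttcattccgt
The Lrat window holds TATAA, a word of the TATA box, with its first base at -29, and it holds GGGCGG, a word bound by Sp1, on the opposite strand at -45. Neither strand of it holds any of the 4 receptor words. Rbm46 holds AGTTCA at -247. Rarb holds 2 words in the same direction with 5 bases between them, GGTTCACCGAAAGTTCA, with its first base at -53, and a further GGGTCA at -83. Among 32851 RefSeq mouse promoters of this length, 16% hold TATAA on the gene's strand and 32.7% hold GGGCGG on either strand. A receptor word on either strand is found in 38.6% of them, and a direct repeat of such words with 5 bases between them in 0.0883%. The windows of Cyp26b1, Dhrs3 and Stra6 hold none of the 4 words. A match is a description of letters, and the absence of one says only that these letters are not in this window.

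Lrat was by far most abundant in the lungs of A/J controls. The A/J control libraries held 378, 416, 322 and 267 fragments on Lrat in replicates 1 to 4. Scaled to the depth of each library (CPM), these were 18.2, 18.0, 14.7 and 15.1, with a mean of 16.5 ± 1.87 (SD, n = 4). The B6 control libraries held 17, 34, 38 and 21 fragments, or 0.877, 1.40, 1.88 and 1.38 CPM, with a mean of 1.38 ± 0.410 (SD, n = 4). The lowest A/J control thus lay well above the highest B6 control. With BMS493, Lrat was close to its detection limit in both strains. The B6 libraries then held 5, 3, 4 and 6 fragments, or 0.252, 0.127, 0.267 and 0.345 CPM, with a mean of 0.248 ± 0.0902 (SD, n = 4). The A/J libraries held 5, 4, 12 and 9 fragments, or 0.232, 0.176, 0.558 and 0.453 CPM, with a mean of 0.355 ± 0.181 (SD, n = 4). Within each strain the BMS493 and control libraries did not overlap, while with BMS493 the libraries of both strains overlapped.

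**Figure D1:**
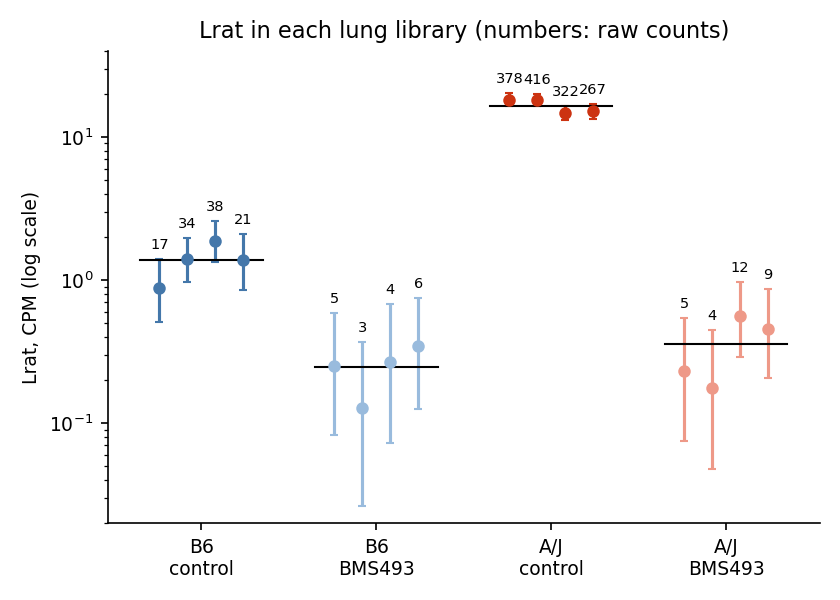
Lrat in each library (points), in CPM on a log axis, for the 4 groups of 4, with bars for the exact 95% Poisson counting interval, the raw count above each library and a line at each group mean. The 4 A/J control libraries sit between 14.7 and 18.2, the B6 controls between 0.877 and 1.88, and the 8 BMS493 libraries between 0.127 and 0.558.

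The counts set how closely these levels are known. In A/J controls the 95% Poisson intervals ran from 13.1 to 20.2 CPM across the 4 libraries. In the B6 BMS493 libraries the interval of replicate 2, with 3 fragments, ran from 0.0262 to 0.371 CPM. The highest A/J BMS493 library (0.558, interval 0.288 to 0.975) and the lowest B6 control (0.877, interval 0.511 to 1.40) did not overlap in level, but their counting intervals did. These intervals cover counting error only. The spread between libraries was 11.3% of the mean in A/J controls against 5.38% from counting alone, and 29.6% against 19.1% in B6 controls. With BMS493 it was 36.4% against 47.1% in B6 and 51.0% against 36.5% in A/J.

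Summed over a group, Lrat had 1383 fragments (95% interval 1311 to 1458) in control and 30 (20.2 to 42.8) in BMS493 lungs of A/J, and 110 (90.4 to 133) and 18 (10.7 to 28.4) in those of B6. Scaled for depth, A/J lungs kept 2.11% of the control level after BMS493, a 47.3-fold lower level with a Clopper-Pearson 95% interval of 33.0 to 70.4. B6 lungs kept 17.1%, a 5.86-fold lower level (3.54 to 10.3). These intervals treat fragments pooled over a group as the units. They cover counting error only and leave out the spread between libraries, as do those of the strain ratios. The A/J to B6 ratio was 11.9 in controls (9.81 to 14.6) and 1.48 with BMS493 (0.797 to 2.81), a counting interval that includes equal levels. The order of the group means was A/J control, B6 control, A/J with BMS493 and B6 with BMS493, and the libraries of the last pair overlapped.

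The fitted log2 fold changes, from an edgeR model of all libraries, gave the same picture. The contrasts of BMS493 and of strain share control libraries, so they are not independent. BMS493 minus control was -2.51 (SE 0.35) in B6 and -5.53 (SE 0.26) in A/J, and the latter minus the former was -3.02 (SE 0.55). A/J minus B6 was 3.57 (SE 0.21) in controls and 0.55 (SE 0.44) with BMS493. The library numbers in the labels run from 1 to 16, and each group has 2 libraries in numbers 1 to 8 and 2 in numbers 9 to 16. Within these sets the log2 difference with BMS493 was -2.59 and -2.41 in B6 and -6.47 and -4.88 in A/J, and the strain difference in controls was 3.99 and 3.19. With BMS493 the strain difference was 0.10 and 0.73. Lrat was higher in the second set than in the first in B6 controls (mean 1.63 against 1.14 CPM) and lower in A/J controls (14.9 against 18.1). With BMS493 it was higher in the second set in B6 (0.306 against 0.190 CPM) and in A/J (0.506 against 0.204).

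Per kilobase of exon (5351 bases in the GENCODE M21 annotation), its level was 3.09 CPM per kb in A/J controls, above 41.9% of the 16935 tested genes with a length. It was 0.259 in B6 controls (above 8.86%), 0.0663 in A/J with BMS493 (above 1.51%) and 0.0463 in B6 with BMS493 (above 0.655%). No 50-base window of its exons, of 5302, is found in the transcripts of another gene, and no other gene has exons that overlap them. The libraries do not keep strand, so fragments from an antisense transcript over Lrat would be counted with it.

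Other enzymes that make or break retinyl esters were read beside Lrat. None of 7 such genes was called with BMS493 in either strain, where a call is an adjusted p under 0.05 in edgeR's quasi-likelihood test over all genes. Of all genes tested, 0.423% were called in B6 and 0.486% in A/J, so a count of 0 of 7 is near the background. Their log2 fold changes lay between -0.09 and 0.46 in B6, and in A/J between -0.34 and 0.12. Dgat1, an acyltransferase that can also esterify retinol, had 23.9 ± 0.886 CPM in control and 23.1 ± 1.06 in BMS493 lungs of B6, and 23.0 ± 1.99 and 24.5 ± 2.28 in those of A/J (SD, n = 4). Per kilobase that was 7.82, 7.55, 7.52 and 8.02 CPM per kb, above Lrat in each of the 4 groups. Awat2, a wax synthase with retinol acyltransferase activity, stood at 0.737 to 0.816 CPM on average in the groups. Lipa, the lysosomal acid lipase, had group means between 60.0 and 65.4 CPM.

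Between strains, 2 of these 7 genes were called in controls and 2 with BMS493, beside 16.9% and 20.0% of all genes tested. Lpl, the lipoprotein lipase that helps cells take up retinyl esters from circulating lipid, was higher in A/J by 0.56 in log2 (SE 0.08, adjusted p = 1.65e-05) in controls and by 0.46 (adjusted p = 0.000191) with BMS493. Its levels were 59.5 ± 2.96 CPM in A/J controls against 40.4 ± 3.57 in B6 controls (SD, n = 4). Pnpla2, a triglyceride lipase that can also release retinol from its esters, was lower in A/J controls, with a log2 difference of -0.45 (SE 0.11, adjusted p = 0.00554). Ces1d, a carboxylesterase with retinyl ester hydrolase activity, was lower in A/J with BMS493, at -0.94 (SE 0.20, adjusted p = 0.00287). Against the 11.9-fold ratio of Lrat in controls, the control differences of Lpl and Pnpla2 were small. With BMS493 the log2 difference of Lrat was itself only 0.55 (SE 0.44), beside 0.46 for Lpl and -0.94 for Ces1d.

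Over the whole retinoid pathway, 39 listed genes other than Lrat, 32 were tested. With BMS493 in B6, 4 of the 32 fell (Stra6, Dhrs3, Cyp26b1 and Rarb) and none rose, where 0.347% of all genes tested were called lower and 0.0752% higher. In A/J, 3 of the 32 fell (Dhrs3, Cyp26b1 and Rarb) and none rose, where 0.423% of all genes were called lower and 0.0637% higher. The median log2 fold change of the list was -0.03 in B6 and -0.0017 in A/J, beside 0.0070 and -0.0019 over all genes tested. Between strains, 5 of 32 differed in controls (4 higher in A/J, 1 lower) and 9 of 32 with BMS493 (6 higher, 3 lower). Over all genes, 16.9% were called in controls (7.04% higher, 9.84% lower) and 20.0% with BMS493 (7.93% higher, 12% lower), so the count of 5 was near the background. The difference between the BMS493 effects of the strains was called for 0 of 32 genes by edgeR and by DESeq2, where 1 of all genes tested was called (0.00579%) and 636 had an unadjusted p under 0.05.

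Cyp26b1, the enzyme that clears retinoic acid in the fetal lung, fell the most among them. Its CPM ran from 13.3 to 24.5 in B6 controls and from 1.10 to 2.47 with BMS493, which is -3.68 in log2 (SE 0.28, adjusted p = 2.51e-06). In A/J it ran from 15 to 27.4 in controls and from 0.756 to 1.35 with BMS493, which is -4.24 in log2 (SE 0.29, adjusted p = 8.22e-08). The groups did not overlap in either strain. Unlike Lrat, its control level was alike in the strains, with a log2 difference of 0.13 (adjusted p = 0.75). Of the other clearing enzymes, Cyp26a1 and Cyp26c1 were too low to be tested.

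Dhrs3, which reduces retinaldehyde back to retinol and so feeds the step that LRAT takes, had 17.7 ± 1.19 CPM in B6 controls and 7.19 ± 2.14 with BMS493 (SD, n = 4). It had 17.6 ± 2.27 CPM in A/J controls and 4.20 ± 0.631 with BMS493 (SD, n = 4). The log2 fold change was -1.31 (SE 0.16, adjusted p = 8.94e-05) in B6 and -2.07 (SE 0.17, adjusted p = 2.39e-08) in A/J. The control libraries of the strains overlapped (log2 difference -0.01), and with BMS493 A/J was lower by -0.76 (SE 0.17, adjusted p = 0.00242). The difference between the strains' BMS493 effects, also -0.76, was not called (adjusted p = 0.999).

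Among the receptor and corepressor genes, Rarb alone of 8 was called with BMS493, in both strains, beside 0.423% of all genes in B6 and 0.486% in A/J. It ran from 7.89 to 9.51 CPM in B6 controls and from 2.68 to 6.67 with BMS493 (log2 fold change -1.02, SE 0.20, adjusted p = 0.0190). In A/J it ran from 7.94 to 10.2 CPM in controls and from 2.56 to 3.98 with BMS493 (-1.56, SE 0.21, adjusted p = 9.11e-05). Its control levels differed between strains by 0.12 in log2 (adjusted p = 0.725). Among the other 7, the corepressor Ncor1 had group means between 288 and 298 CPM and the partner receptor Rxra between 157 and 166 CPM.

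Stra6, the membrane receptor that takes up retinol from its plasma carrier, shared with Lrat a higher level in A/J. In B6 it ran from 5.88 to 6.58 CPM without and from 1.23 to 3.74 with BMS493. In A/J the ranges were 8.06 to 12.9 and 4.97 to 7.76. With BMS493 it fell in B6, at -1.15 in log2 (SE 0.24, adjusted p = 0.0268). The A/J value of -0.76 (SE 0.21, adjusted p = 0.172) did not pass. A/J exceeded B6 by 0.72 (SE 0.21, adjusted p = 0.0225) in controls and by 1.11 (SE 0.24, adjusted p = 0.0016) with BMS493. In controls that call was lost without A/J control replicate 2 or without B6 control replicate 1, 2 or 4. With BMS493 the strain difference of Lrat was 0.55 (SE 0.44).

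The B6 calls of Stra6 and Rarb were lost without some single libraries. The Stra6 call was lost without any 1 of the B6 controls or without B6 BMS493 replicate 2 or 3 (adjusted p up to 0.0957), and the Rarb call without any 1 of the B6 controls or without B6 BMS493 replicate 2 (up to 0.0790). Both were also lost in an edgeR fit of the B6 libraries alone (adjusted p = 0.142 for Stra6 and 0.144 for Rarb). That of Stra6 was lost as well on the counts of the first strand column (adjusted p = 0.129 in edgeR). The calls of Cyp26b1 and Dhrs3 held in both strains without each library in turn.

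Other genes of retinol handling were called between strains. Crabp2, which carries retinoic acid to its receptors, was higher in A/J by 1.04 in log2 (adjusted p = 0.00632) in controls and by 0.85 (adjusted p = 0.0287) with BMS493. Rdh10, which oxidises retinol to retinaldehyde, was higher by 0.36 (adjusted p = 0.00904) and 0.40 (adjusted p = 0.00378). Aldh1a2, which makes retinoic acid from retinaldehyde, and Rbp4, the plasma carrier of retinol, were called higher with BMS493, by 0.59 (adjusted p = 0.0211) and 0.58 (adjusted p = 0.0128). Both were at 0.37 in controls (adjusted p = 0.152 and 0.130), and the difference between the contrasts was not called (adjusted p = 0.999 for each). None of these 4 was called with BMS493 in either strain. Among the strain calls with BMS493, those of Crabp2, Aldh1a2 and Rbp4 were lost in 4, 2 and 1 of 16 fits without 1 library.

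**Figure D2:**
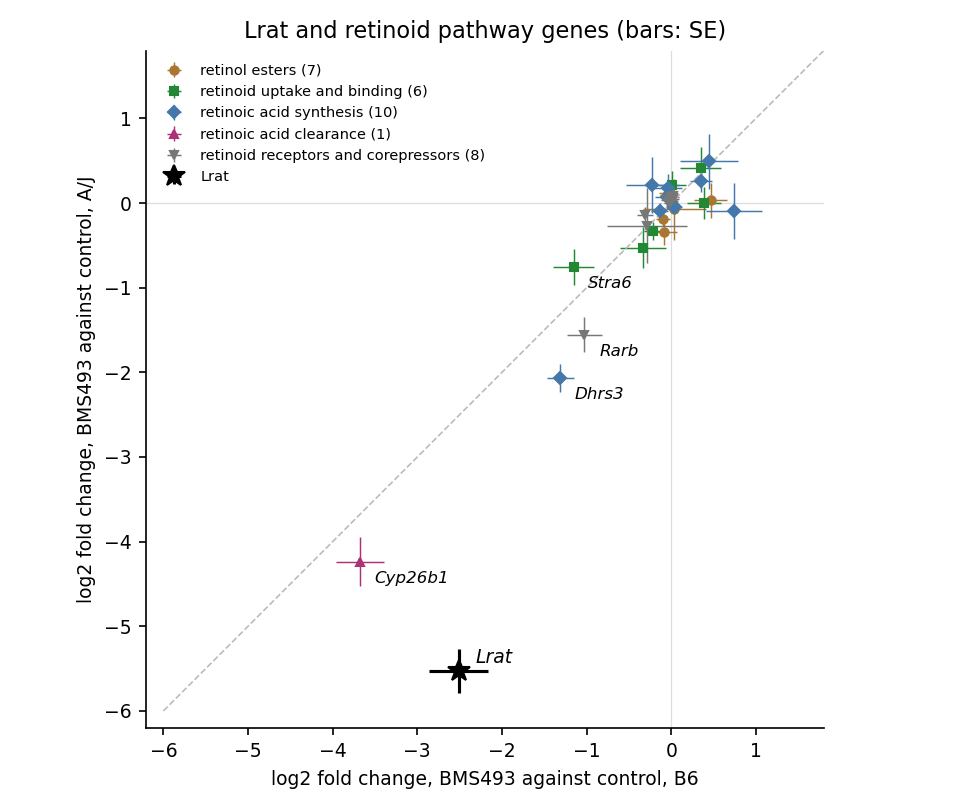
Log2 fold change with BMS493 in B6 (x axis) and in A/J (y axis) for Lrat (star) and the tested retinoid pathway genes by list, with bars for the standard error and a dashed line of equal change. Lrat lies at -2.51 and -5.53, Cyp26b1 at -3.68 and -4.24, and most other genes lie near 0 on both axes.

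Of 5 genes for proteins with an LRAT-like fold, 3 were tested, and none was called with BMS493 in either strain, which is near the background of 0.423% and 0.486% of all genes. Between strains 2 of the 3 were called in controls and with BMS493, beside 16.9% and 20.0% of all genes. Lratd2 (also Fam84b) had group means between 37.6 and 50.3 CPM and was lower in A/J, at -0.31 in log2 (SE 0.11, adjusted p = 0.046) in controls and -0.33 (adjusted p = 0.0267) with BMS493. Lratd1 (Fam84a) was lower in A/J at -0.72 (SE 0.22, adjusted p = 0.0237) and -0.61 (adjusted p = 0.048). These 4 calls were marginal. Without 1 library at a time, the calls of Lratd1 were lost in 4 of 16 fits in controls and 10 with BMS493, and those of Lratd2 in 10 and 5. Plaat3, a phospholipase, had group means between 7.14 and 9.55 CPM.

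The gene nearest to Lrat moved with it. Rbm46 (ENSMUSG00000033882.16) encodes an RNA-binding protein known from germ cells, and it lies next to Lrat on chromosome 3, on the same strand, with Lrat upstream. Its A/J control libraries had 45.3, 43.3, 36.3 and 50.3 CPM and its B6 controls 15.1, 12.4, 16.7 and 12.6. With BMS493 it had 18.1, 17.9, 15 and 14 CPM in A/J and 7.57, 6.13, 12.1 and 8.84 in B6. The 4 A/J controls were above all other libraries, and the BMS493 and control libraries did not overlap in either strain. Rbm46 was above Lrat in every group, with 17.5 and 6.50 CPM per kb in control and BMS493 lungs of A/J and 5.68 and 3.46 in those of B6.

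The choice of Lrat did not use the values of Rbm46, but its tests with BMS493 were added after the data were seen. Rbm46 fell with BMS493, with a log2 fold change of -1.43 in A/J (SE 0.15, adjusted p = 5.88e-06) and of -0.74 in B6 (SE 0.16, adjusted p = 0.0441). It was higher in A/J by 1.62 (SE 0.15, adjusted p = 3.86e-08) in controls and by 0.93 (SE 0.16, adjusted p = 0.000202) with BMS493. The difference between the strains' BMS493 effects was -0.69 (SE 0.22) and was not called (adjusted p = 0.999). The fitted values had the same signs as those of Lrat. The call in B6 was marginal. It was lost without any 1 of the B6 controls, B6 BMS493 replicates 1, 2 and 4, A/J control replicates 1 and 2 and A/J BMS493 replicates 1, 3 and 4, with an adjusted p of up to 0.179. The call in A/J held without each library in turn (adjusted p up to 9.15e-05). None of 2496 windows of 50 bases of the exons of Rbm46 is shared with another gene.

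**Figure D3:**
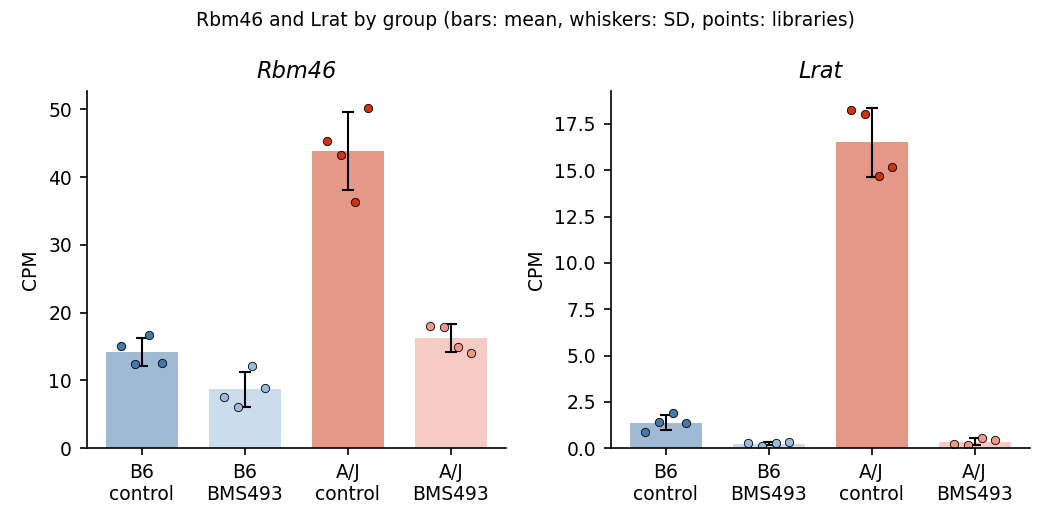
Rbm46 (left) and Lrat (right) in CPM in each group of 4 libraries, with bars for the mean, whiskers for the SD and points for the libraries. The A/J controls are highest for both genes, with Rbm46 between 36.3 and 50.3 and Lrat between 14.7 and 18.2, while Rbm46 stays at 6.13 or above in the B6 BMS493 libraries.

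Low counts came from the antisense gene Rbm46os, which spans Lrat on the opposite strand with no shared exon in the annotation and was too low to be tested. It had 6, 13, 3 and 5 fragments in the A/J controls, a sum of 27. The sums of the other groups were 2 (B6 control), 4 (B6 BMS493) and 1 (A/J BMS493).

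Of the 10 protein-coding genes on each side of Lrat, 15 were tested. With BMS493, 1 of the 15 was called in B6 (Rbm46, 0.423% of all genes called) and 2 in A/J (Rbm46 and Sfrp2, 0.486% of all genes called), all lower. Sfrp2, a secreted Wnt antagonist, fell in A/J, at -0.49 in log2 (SE 0.10, adjusted p = 0.0292), a call lost without any 1 of A/J control replicates 1 to 3, A/J BMS493 replicates 1 to 3 and B6 BMS493 replicate 3 (adjusted p up to 0.124). In controls, 4 of 15 differed between strains (26.7%, beside 16.9% of all genes), and with BMS493 3 of 15 (20.0%, the same as over all genes). The median log2 difference of the 15 was 0.09 in controls and 0.02 with BMS493, beside 0.0081 and 0.0032 over all genes.

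Besides Rbm46, A/J controls were higher for Glrb, a glycine receptor subunit (0.53, adjusted p = 0.0334), and Sfrp2 (0.44, adjusted p = 0.00447). They were lower for Gucy1a1, a subunit of the nitric oxide receptor (-0.27, adjusted p = 0.0011). With BMS493, A/J was higher for Mnd1, a meiotic recombination factor (0.43, adjusted p = 0.0423), and lower for Gucy1a1 (-0.32, adjusted p = 0.000141). The calls of Glrb and Mnd1 were lost in 5 and 9 of 16 fits without 1 library. On the other side of Lrat the nearest gene is Fgg, a fibrinogen chain made in liver, which held at most 5 fragments in any library and was not tested. Among the called neighbours Rbm46 had the largest log2 difference in each of these contrasts. Tdo2, a tryptophan-degrading enzyme, had wider fitted changes with BMS493 that did not pass, -1.07 in B6 (adjusted p = 0.313) and -1.52 in A/J (adjusted p = 0.0764). It and Sfrp2 were singled out after their values were seen.

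**Figure D4:**
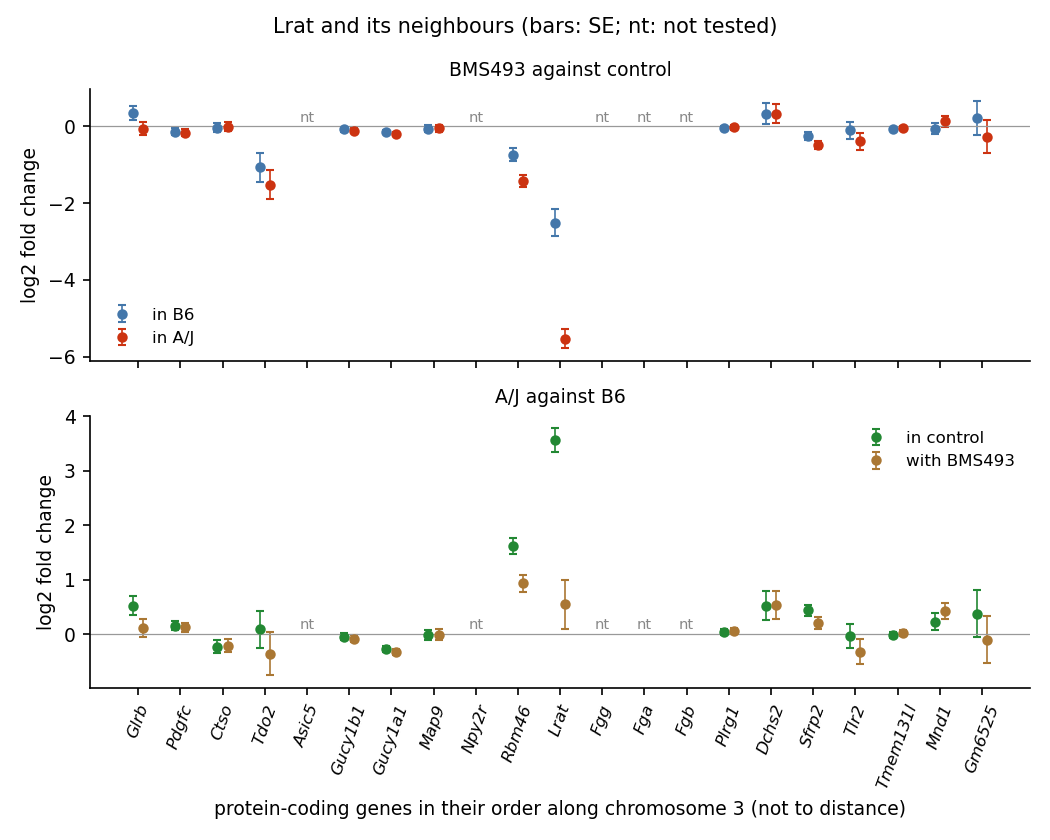
Log2 fold changes of Lrat and its tested neighbours in gene order along chromosome 3 (x axis, order only, with no distances), with BMS493 in each strain (top) and between strains in each treatment (bottom), with bars for the standard error and nt for genes not tested. Lrat and Rbm46 stand next to each other, at 3.57 and 1.62 for A/J minus B6 in controls and at -5.53 and -1.43 for BMS493 in A/J.

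Markers of other cell types were read beside these results. The lung list (Nkx2-1, Sftpc, Sox9, Tbx4 and Foxf1) had a median summed level of 1031 CPM (range 927 to 1089) in control and 1100 (913 to 1667) in BMS493 lungs of B6. In A/J the medians were 844 (725 to 875) and 806 (775 to 849), with no marker at 0 in any group. Sftpc, the surfactant gene of the distal epithelium, was lower in A/J, at -1.79 in log2 (adjusted p = 0.00857) in controls, opposite to Lrat. Foxf1, a mesenchymal factor, was lower with BMS493 in B6 (-0.40, adjusted p = 0.0233), and its part in the results was not tested.

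Vitamin A storing fibroblasts are one kind of cell that makes LRAT. The 10 markers fixed for them (Tcf21, Plin2, Pparg, Pdgfra, Fgf10, Reln, Lhx2, Hgf, Des and Ngfr) summed to 537 to 557 CPM in control and 544 to 606 in BMS493 lungs of B6. In A/J the sums were 509 to 565 and 524 to 575, and none of the 10 was at 0 in any group. None of the 10 was called with BMS493 in either strain, which is near the background of 0.423% and 0.486% of all genes. In controls, where 16.9% of all genes were called, 2 were higher in A/J, Reln (0.91, adjusted p = 0.000303) and Lhx2 (1.51, adjusted p = 0.0371), and 2 were lower, Tcf21 (-0.35, adjusted p = 0.00227) and Plin2 (-0.19, adjusted p = 0.0457). With BMS493, where 20.0% of all genes were called, 5 of the 10 differed between strains. Reln (1.05) and Pdgfra (0.16, adjusted p = 0.0479) were higher in A/J, and Tcf21 (-0.42), Plin2 (-0.37) and Pparg (-1.80, adjusted p = 0.000991) were lower. The summed level of the list, of which Pdgfra made up 224 to 262 CPM on average in the groups, overlapped between all 4 groups. The part of these cells in the Lrat levels was not tested.

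Hepatocytes and stellate cells of liver lie near the lung at this age. The 8 hepatocyte markers (Alb, Afp, Apoa1, Apoa2, Ahsg, Serpina1b, Fgb and Ttr) summed to 2.16 to 14.2 CPM in control and 1.57 to 8.15 in BMS493 lungs of B6. In A/J the sums were 1.93 to 2.37 and 1.30 to 5.90. In A/J controls, where Lrat was highest, Apoa2, Ahsg, Serpina1b and Ttr were at 0, and Alb ran from 0.113 to 0.319 CPM, against 0.593 to 5.21 in B6 controls, where 1 library held most of it. Their part in the results was not tested. The 5 mesothelium markers (Wt1, Msln, Upk3b, Upk1b and Lrrn4) had median sums of 89.9 CPM (range 87.7 to 93.6) in control and 72.1 (60.5 to 93.8) in BMS493 lungs of B6. In A/J these were 101 (94.0 to 109) and 84.1 (77.7 to 89.5), and none was at 0. None of the 5 was called with BMS493 in either strain, again near the background share. In A/J all 5 had negative log2 fold changes with BMS493 (median -0.29), and in B6 3 of the 5 did (median -0.06). The A/J controls of Wt1 lay above all other libraries, as those of Lrat did. The strain differences went in both directions. In controls, Wt1, a transcription factor of mesothelium, was called higher in A/J (0.74 in log2, adjusted p = 0.00179), Upk1b was called lower (-1.16, adjusted p = 2.3e-06) and Msln was at -1.27 (adjusted p = 0.0743). With BMS493, Msln (-2.28, adjusted p = 0.00106) and Upk1b (-1.44) were called lower in A/J, and Wt1 (0.75, adjusted p = 0.0019) and Upk3b (0.32, adjusted p = 0.0362) higher. Upk3b made up most of the sum, with 56.3 and 40.8 CPM in control and BMS493 lungs of B6 and 62.4 and 51.0 in those of A/J. The part of these cells in the results was not tested. The 5 cardiomyocyte markers had median sums between 13.4 CPM in A/J with BMS493 and 27.0 in B6 controls, with Nppa at 0 in every group. Of the 4 tested, Tnnt2, a sarcomere gene, was called lower in A/J controls than in B6 controls (-1.50 in log2, adjusted p = 0.00596), and all 4 had negative values there, with a median of -0.82. None was called with BMS493 in either strain, and the part of these cells in the results was not tested.

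The genes whose profile was most like that of Lrat were ranked by the Pearson correlation of log2 CPM over the 16 libraries, among 14543 genes with a mean of at least 1 CPM. The libraries fall into groups that the ranking reads, so it is a description. The 8 highest were Gbp2 (r = 0.95), Asb4 (0.94), Neto1 (0.94), Pdzrn3 (0.93), Zfp827 (0.93), Gas1 (0.92), Tnfsf13b (0.90) and Dusp10 (0.90). Rbm46 ranked 13 (r = 0.88), Cyp26b1 36 (r = 0.82), Rarb 62, Stra6 75 and Dhrs3 102.

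In all 8 the A/J controls had the highest group mean, and the sizes of the differences varied. Gbp2, an interferon-inducible GTPase, averaged 2.49 and 1.73 CPM in control and BMS493 lungs of B6 and 10.5 and 1.63 in those of A/J. Tnfsf13b, the B cell survival factor BAFF, had 5.46, 1.78, 10.9 and 2.09 CPM in the same order. Asb4, an ubiquitin ligase subunit, had 18.0, 10.8, 27.7 and 14.8 CPM. Gas1, a membrane coreceptor of hedgehog signalling, had 45.5, 32.6, 58.0 and 38.2 CPM. Pdzrn3 and Zfp827 ranged only from 80.9 to 108 and from 51.5 to 71.3 CPM between group means.

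**Figure D5:**
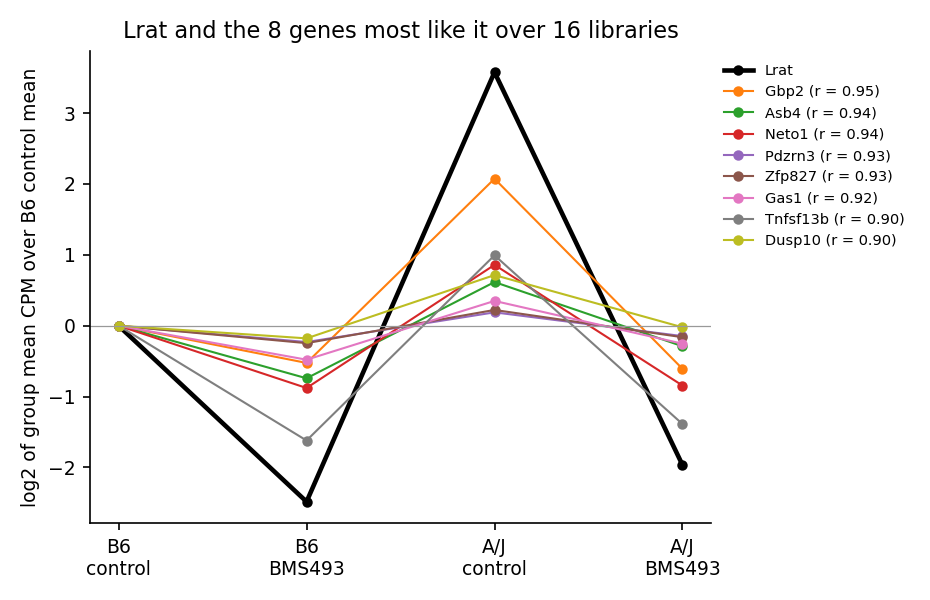
Group mean CPM over the B6 control mean, in log2 (y axis), in each of the 4 groups (x axis), for Lrat and the 8 genes with the highest correlation to it. All 9 are highest in A/J controls, and Lrat covers the widest range.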

How the data were processed

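The authors deposited raw counts per gene for each library, in files with the layout of STAR gene counts and 3 columns: regardless of strand and for each strand. FastQC, cutadapt, STAR and the build GRCm39 are named per the submitters' processing notes, and versions are not given in the sources used here. The first strand column held 51.0% to 52.0% of stranded counts, so the column without strand was used. Libraries held 20105760 to 31838104 fragments, of which 15207539 to 24146224 (71.7% to 76.9%) were assigned to genes. The 4 lines that are not genes (23.1% to 28.3%) were left out.

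Symbols came from GENCODE M21 (51884 of 57180 identifiers matched, 98.9% of counts). M21 is on GRCm38, so only gene order, exon lengths and chromosomes were taken from it. The filter filterByExpr of edgeR 4.0.16 in R 4.3.3 kept 17276 genes. Libraries were scaled with TMM, and 1 robust quasi-likelihood model with 4 groups and 12 residual degrees of freedom was fitted. Adjusted p-values are Benjamini-Hochberg values over all genes tested, with calls at an adjusted p under 0.05. CPM use TMM. Tables were handled with Python 3.11.15, pandas 2.3.3 and scipy 1.17.1. On simulated counts for 16995 genes with 200 changed 3-fold, 96% were recovered in each strain, and 5.88% (B6) and 3.52% (A/J) of calls were unchanged genes. The changed genes were drawn only from those above a minimum mean count, so the recovered share does not cover genes with low counts.

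Lrat, the gene lists and the markers were chosen with earlier results of these data known. Named genes were Lrat, members of the retinoid and LRAT-like lists called in any contrast, abundant uncalled members as examples, the 8 genes most like Lrat, the 5 genes with the highest A/J control ratio, the nearest neighbour on each side and neighbours called between strains. Sfrp2, Tdo2 and Rbm46os were also described after their values were seen, and the tests of neighbours (Rbm46 included) with BMS493 were added after the data were seen. Alternatives were DESeq2 1.42.0, other scaling (RLE), other filters, only the libraries compared, a replicate block, the library set as a term, each stranded column and each library left out. For Lrat the edgeR fold changes were also taken with a prior count, a small value added to counts, of 2 in place of 0.125. Some results of the retinoid lists are not reported here.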

Additional observations from a re-analysis of the deposited data

Results flagged for a closer look

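Single libraries that stood apart from the other 3 of their group were looked for in 124 groups of 31 genes, by the gap to the nearest library divided by the range of the group. A gap past Dixon's 95% critical value occurs by chance in about 1 of 20 groups, and 9 were found, none for Lrat or Rbm46. Stra6 was highest in B6 control replicate 3 (gap 0.958, with 6.58 CPM against 5.88 to 5.91 in the others), and Cyp26b1 in B6 BMS493 replicate 3 (gap 0.922, 2.47 against 1.10 to 1.21). Dhrs3 was highest in B6 control replicate 2 (gap 0.902, 19.5 against 17 to 17.3), and Rarb in B6 control replicate 4 (gap 0.833, 9.51 against 7.89 to 8.16). Ces1d was highest in B6 BMS493 replicate 2 (gap 0.860, 44.6 against 20.1 to 23.6). Crabp2 was lowest in B6 control replicate 3 (gap 0.844, 3.61 against 4.26 to 4.38), and Aldh1a2 in B6 control replicate 1 (gap 0.830, 39.6 against 46.5 to 47.9). Pou3f1 was highest in B6 BMS493 replicate 1 (gap 0.884, 0.454 CPM) and in A/J BMS493 replicate 4 (gap 0.913, 1.21 CPM).

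The effect of BMS493 on Gbp2 differed between the strains, with a log2 difference of -2.16 (SE 0.28, adjusted p = 0.000737 over all genes tested with edgeR's quasi-likelihood test). It was the only gene of 17276 called in that contrast.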

How the results depend on the processing

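The fitted log2 fold change of Lrat kept its direction and stayed within the spread between libraries in every alternative that gave a value. Without 1 library at a time it ran from -2.71 to -2.25 for BMS493 in B6, from -5.84 to -5.30 in A/J, from 3.40 to 3.75 for the strains in controls, from 0.23 to 0.78 for the strains with BMS493 and from -3.33 to -2.79 for the difference between the effects. Among the 8 BMS493 libraries alone Lrat did not pass the filter, so that fit gave no value.

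Counts of called genes moved more. Of the retinoid genes, B6 with BMS493 gave 4 calls, 2 with only the libraries compared, and 2 to 4 without 1 library. A/J gave 3, and 5 without a filter or with only the libraries compared. The strains in controls gave 5, 9 with DESeq2, 8 without a filter or with the second stranded column, 10 with only the libraries compared, and 4 to 10 without 1 library (10 without B6 BMS493 replicate 2). Of the neighbours, B6 with BMS493 gave 1, 2 without a filter, 0 with only the libraries compared, with the library set as a term or with the first stranded column, and 0 to 1 without 1 library. A/J with BMS493 gave 2, 4 with DESeq2, and 1 to 3 without 1 library. The cause was not tested. The neighbour counts with BMS493 were added after the data were seen. No direction reversed.

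Libraries of the same replicate number did not deviate together (24 pairs, correlations -0.147 to 0.148, median -0.0089), so the numbers were not taken as pairs. With the replicate block, Lrat gave -2.49 in B6 and -5.55 in A/J, the neighbours called in B6 with BMS493 were 0, and the B6 calls of Rbm46 (adjusted p = 0.0810 in edgeR) and Stra6 (adjusted p = 0.0502) were lost. The low counts of Lrat with BMS493, 3 to 12 fragments a library, limit the strain comparison there.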

Other observations

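A search over all genes tested asked how common the profile of Lrat is. All 4 A/J control libraries were above the other 12 libraries in 130 of 17276 genes (0.752%). In 5 of them (0.0289%) the A/J control mean was also at least 4 times the mean of every other group, and Lrat had the highest ratio, 11.9. The others were Gbp2b (6.58), Pou3f1 (4.33), Gbp5 (4.32) and Gbp2 (4.21). Gbp2b, Gbp5 and Gbp2 are guanylate-binding proteins, interferon-inducible GTPases. These 3 lie on chromosome 3 as Lrat does, but none is among the 10 nearest protein-coding genes on either side of it. Pou3f1, a POU domain transcription factor on chromosome 4, averaged 0.893 and 0.274 CPM in control and BMS493 lungs of B6 and 3.86 and 0.838 in those of A/J. Gbp2b was nearly absent from B6, with 0 to 2 fragments in controls and 0 with BMS493, and averaged 7.28 and 1.11 CPM in A/J without and with the drug. Gbp5 averaged 0.451 and 0.337 CPM in B6 and 2.14 and 0.497 in A/J, without and with the drug. These genes were picked from the same libraries, so their values are a description.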
